A study of Mus musculus with 9 samples.

Results

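The genes of oxidative phosphorylation encode the proteins of the mitochondrial respiratory chain, complexes I to IV, and of ATP synthase, complex V. They were taken by name: symbols that begin with Nduf, Uqcr or Atp5, the genes Sdha, Sdhb, Sdhc and Sdhd, and symbols that begin with Cox4, Cox5, Cox6, Cox7 or Cox8. Only probe sets annotated to 1 gene were used, and where a gene had several, the brightest on average across the 9 arrays stood for it. The rule found 89 of the 19938 genes measured and used no difference between groups. Of these, 41 belong to complex I (6 core subunits, 28 accessory subunits and 7 assembly factors), 4 to complex II, 8 to complex III, 19 to complex IV and 17 to complex V. Assembly factors and the supercomplex factor Cox7a2l are no subunits in the strict sense, which leaves 81 subunit genes. Ndufa4 and Ndufa4l2 carry complex I names but are counted with complex IV, where the Ndufa4 protein is known to sit. Cox7c, Ndufb4 and Ndufb4b match by name but are on probe sets shared with another gene, and they were not analysed here.

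The arrays compared 3 groups of 3 samples. The osteosarcoma group held 3 tumour cell lines, 1 array each, from adult C57BL/6 mice of the genotype Osx-Cre p53fl/fl Rbfl/fl, so that Cre, under the Osx promoter of the osteoblast lineage, removes p53 and Rb. The labels call these lines fibroblastic and give female donors for lines 1 and 3 and a male donor for line 2; they were grown subconfluent and used below passage 8. The osteoblast group held 3 cultures of Kusa4b10, a stromal line from mouse marrow, kept for 21 days in medium with ascorbate, and the pre-osteoblast group held 3 undifferentiated Kusa4b10 cultures. All 6 Kusa4b10 cultures are of 1 line, so their spread is that of cultures which the labels call independent. Tumour state and the origin and culture of the lines cannot be told apart, nor can differentiation and the medium, the days in it or the state of growth. Because the samples are bulk cultures, fewer cells of a type and less RNA per cell cannot be told apart either.

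Complexes I and II pass electrons from NADH and succinate to ubiquinone, complex III passes them on to cytochrome c, and complex IV, cytochrome c oxidase, hands them to oxygen. Complexes I, III and IV pump protons across the inner mitochondrial membrane, and ATP synthase uses their return to make ATP. A few catalytic subunits are encoded in mitochondrial DNA, while the genes described here lie in the nucleus and are read by nuclear factors such as NRF1 and GABP with the PGC-1 coactivators. Several subunits of cytochrome c oxidase exist as a form found in most tissues and a form restricted to heart and skeletal muscle, lung, testis or, in rodents, brown fat. Osteoblasts are known for a strong use of glycolysis, and bone-forming cells also respire.

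Values are log2 expression levels, and a difference of 1 is a 2-fold difference; levels of different probe sets are not on a common scale, so only differences between groups are compared. Of the 89 genes, 83 lay above the median gene level of 7.97. The median SD between the arrays of a group was 0.12 over these genes in the osteosarcoma lines, 0.06 in osteoblasts and 0.08 in pre-osteoblasts, against 0.12, 0.08 and 0.09 over all genes. A gene was called at an adjusted p below 0.05 (limma, Benjamini-Hochberg over 19938 genes). Among 10 osteoblast and osteocyte markers, 7 were called higher in osteoblasts than in pre-osteoblasts, against 10.3% of all genes. In osteosarcoma lines, 5 of them were called lower than in osteoblasts, against 12.7% of all genes.

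Differences between the groups were mostly under 2-fold, and the largest were those of Cox8b and Cox6a2, tissue isoforms of cytochrome c oxidase. Only 3 genes differed at least 2-fold with a call between osteoblasts and pre-osteoblasts (Cox8b, Cox6a2 and Ndufaf1), where 6.23% of all genes did. Between osteosarcoma lines and pre-osteoblasts 1 did (Ndufaf1, against 4.58% of all genes), and between osteosarcoma lines and osteoblasts 2 (Cox8b and Cox6a2, against 6.94%). Between osteosarcoma lines and osteoblasts, 26 genes were called higher and 8 lower in the lines; 14.7% of all genes were called higher and 12.7% lower. Between osteosarcoma lines and pre-osteoblasts, 26 were called higher and 11 lower in the lines, against 9.96% and 13.5% of all genes. Without line 1 the count called lower in this comparison was 6. Between osteoblasts and pre-osteoblasts, 10 were called higher and 18 lower in osteoblasts, against 10.3% and 15.8% of all genes. Without osteoblast culture 1 the count called higher was 5, and without osteoblast culture 3 or pre-osteoblast culture 3 it was 6. The 3 comparisons share their arrays and are not independent of each other.

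The median difference over the 89 genes was 0.11 between osteosarcoma lines and osteoblasts (-0.02 over all genes), 0.04 between the lines and pre-osteoblasts (-0.02 over all genes) and -0.002 between osteoblasts and pre-osteoblasts (-0.004 over all genes). Well-expressed genes are called more often, so the counts are also given among genes above the median level, tested on their own. Of these genes, 47.0% were called in either direction between lines and osteoblasts, 40.3% between lines and pre-osteoblasts and 46.2% between osteoblasts and pre-osteoblasts. There, 31.3% of 83 members were called higher in osteosarcoma lines than in osteoblasts, against 25.6% of 9969 genes, and 8.43% were called lower, against 21.4%. Against pre-osteoblasts, 33.7% of these members were called higher in the lines, against 16.2% of genes, and 14.5% lower, against 24.1%. In osteoblasts against pre-osteoblasts, 10.8% were called higher, against 17.1% of genes, and 22.9% lower, against 29.1%. No test was made of these shares. Of the 89 genes, 51 differed by less than 0.25 between lines and osteoblasts, 45 between lines and pre-osteoblasts and 58 between osteoblasts and pre-osteoblasts, against 12590, 13009 and 12956 of the 19938 genes.

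All 3 osteosarcoma lines lay above all 6 Kusa4b10 arrays for 25 of the 89 genes (28.1%, against 8.45% of all genes) and below them for 6 (6.74%, against 9.47%). Among genes above the median level, the lines lay on top for 30.1% of the 83 members and 11.8% of genes. Osteoblasts lay above the other 6 arrays for 5 genes (5.62%, against 9.57% of all genes), all of complex IV: Cox8a, Cox4i2, Cox6a2, Cox7a1 and Cox8b. They lay below the others for 11 genes (12.4%, against 12.2%), and pre-osteoblasts lay on top for 12 (13.5%, against 11.6%) and at the bottom for 10 (11.2%, against 7.28%). Above the median level, the lines lay below for 7.23% of members and 14.5% of genes. Osteoblasts there lay above for 3.61% of members and 13.0% of genes, and below for 13.3% and 21.0%. Pre-osteoblasts there lay on top for 14.5% of members and 18.4% of genes, and at the bottom for 10.8% and 10.5%.

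**Figure D1:**
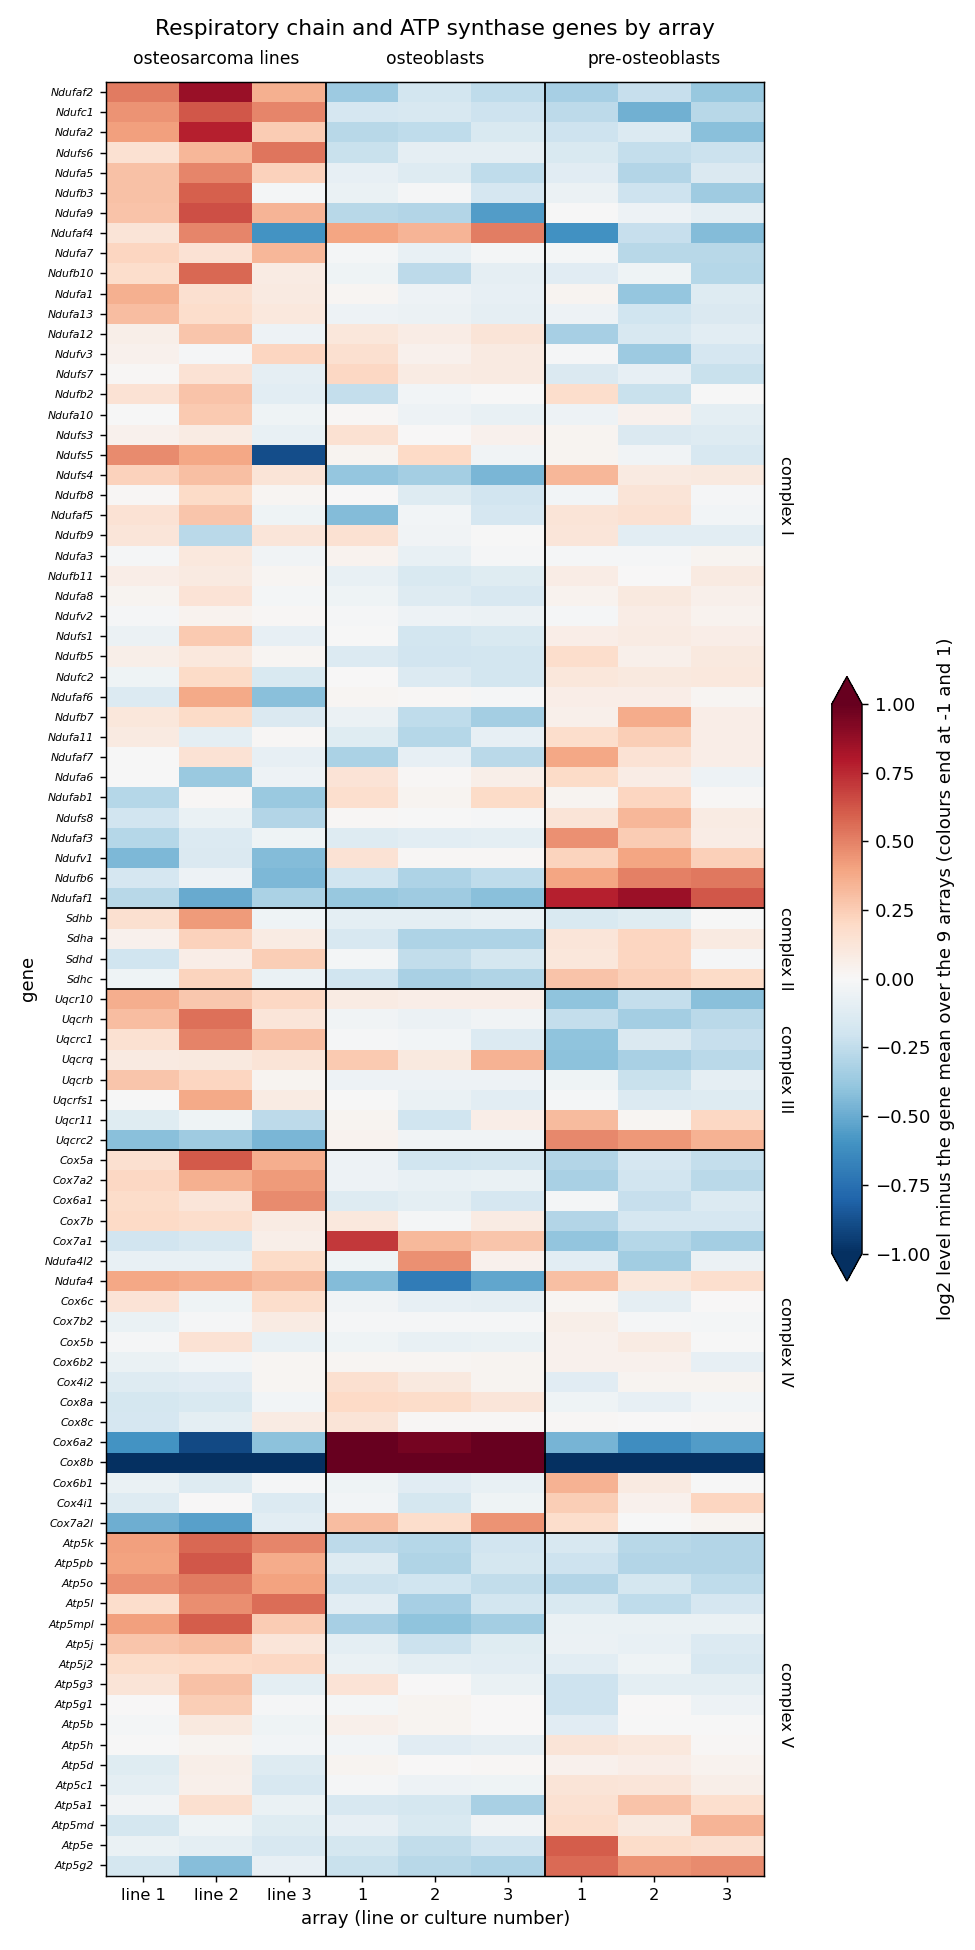
Log2 level of each of the 89 genes on each of the 9 arrays minus the gene's mean over the arrays, by respiratory complex; columns are osteosarcoma lines 1 to 3, osteoblast cultures 1 to 3 and pre-osteoblast cultures 1 to 3, and colours end at -1 and 1. The widest contrasts are Cox8b and Cox6a2, high on the 3 osteoblast arrays, while blocks of complex I, III and V genes are high on the 3 osteosarcoma arrays.

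**Figure D2:**
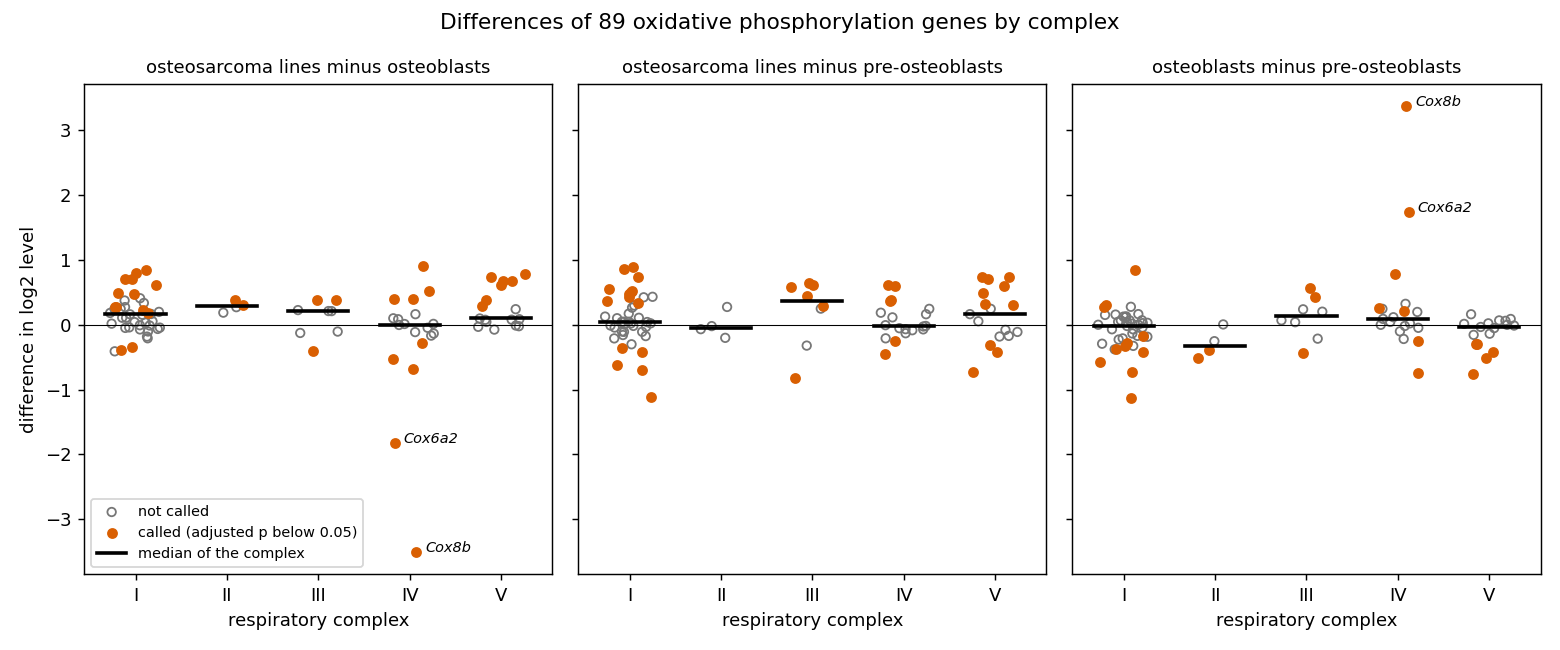
Difference in log2 level between groups for each gene, 1 point per gene, by respiratory complex; filled points passed an adjusted p below 0.05 and bars are the median of a complex. Complex IV holds the widest range, from -3.50 to 0.91 between osteosarcoma lines and osteoblasts, with Cox8b and Cox6a2 at the low end.

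Cytochrome c oxidase was the complex whose isoforms separated osteoblasts from both other groups. Cox8b, the form of subunit VIII found in rodent heart, skeletal muscle and brown fat, had levels of 6.74, 6.94 and 6.92 in osteosarcoma lines 1 to 3, 10.86, 9.74 and 10.52 in osteoblast cultures and 7.08, 6.98 and 6.95 in pre-osteoblast cultures. Every osteoblast array was thus far above the other 6, among which the lines lay just below the pre-osteoblasts. Cox8b in osteoblasts exceeded its pre-osteoblast level 10.3-fold (log2 difference 3.37 ± 0.24, SE; adjusted p = 6e-05 by limma) and 11.3-fold lower in the lines than in osteoblasts (-3.50 ± 0.24, adjusted p = 6e-05), while lines and pre-osteoblasts differed by -0.13 (95% confidence interval -0.68 to 0.42).

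Cox6a2, the muscle form of subunit VIa, had levels of 7.90, 7.60 and 8.09 in the lines, 9.74, 9.45 and 9.86 in osteoblasts and 8.03, 7.88 and 7.94 in pre-osteoblasts. It rose 3.33-fold in osteoblasts against pre-osteoblasts (1.73 ± 0.14, adjusted p = 0.00011) and 3.53-fold lower in the lines than in osteoblasts (-1.82 ± 0.14, adjusted p = 0.0001). Cox7a1, the muscle form of subunit VIIa, was also highest on the osteoblast arrays, with 6.81, 6.84 and 7.07 in the lines, 7.71, 7.33 and 7.28 in osteoblasts and 6.61, 6.72 and 6.66 in pre-osteoblasts. Unlike for Cox8b and Cox6a2, the pre-osteoblast arrays were the lowest, below all 3 lines, though lines and pre-osteoblasts differed without a call (0.24, adjusted p = 0.20). Its difference was 0.78 ± 0.12 between osteoblasts and pre-osteoblasts (adjusted p = 0.0022) and -0.53 ± 0.12 between lines and osteoblasts (adjusted p = 0.012).

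The other restricted isoforms did not pass the test in any comparison. These are Cox4i2 of lung and hypoxic cells, the testis forms Cox6b2, Cox7b2 and Cox8c, and Ndufa4l2, a paralogue of Ndufa4 known to be induced by hypoxia. Their differences between osteoblasts and pre-osteoblasts were 0.11 for Cox4i2 (95% confidence interval -0.04 to 0.27), 0.02 for Cox6b2 (-0.10 to 0.14) and 0.32 for Ndufa4l2 (-0.01 to 0.66). Cox7b2 and Cox8c differed by -0.02 (-0.15 to 0.11) and 0.04 (-0.12 to 0.21). The 3 osteoblast values of Cox7b2 were identical as deposited (5.4981, SD 0.0), which lowers its pooled spread. Of the 8 restricted isoforms, then, 3 were called higher in osteoblasts than in pre-osteoblasts, against 10.3% of all genes. In osteosarcoma lines against pre-osteoblasts none was called, against 23.5% of all genes, and all 8 differences were below 0.25 in size. However, Cox4i2, Cox6b2, Cox7a1, Cox7b2, Cox8c and Ndufa4l2 lay below the median gene level of 7.97. Dim genes are called less often, so the shares over all genes are no matched yardstick for these isoforms.

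Of the common partners of these isoforms, Ndufa4 differed most between osteoblasts and the other groups. Ndufa4, a subunit of cytochrome c oxidase, had levels of 11.40, 11.38 and 11.33 in the lines, 10.58, 10.31 and 10.49 in osteoblasts and 11.32, 11.13 and 11.18 in pre-osteoblasts. It fell in osteoblasts against pre-osteoblasts (-0.75 ± 0.08, adjusted p = 0.00042) and higher in the lines than in osteoblasts (0.91 ± 0.08, adjusted p = 0.00017), and its osteoblast arrays lay below all others. Cox8a, the common form of subunit VIII, fell by 0.29 in the lines against osteoblasts (SE 0.06, adjusted p = 0.0065). It rose by 0.22 in osteoblasts against pre-osteoblasts (adjusted p = 0.024). The call was lost without osteoblast culture 1 or 2 or any 1 of the pre-osteoblast cultures (adjusted p up to 0.084). It was also lost with the replicate number as a block.

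Cox7a2, the common form of subunit VIIa, rose in the lines by 0.39 ± 0.07 against osteoblasts and 0.59 ± 0.07 against pre-osteoblasts (adjusted p = 0.0034 and 0.00066, limma). Cox5a, which binds thyroid hormone metabolites in the matrix arm of the enzyme, also rose in the lines, by 0.52 ± 0.11 and 0.61 ± 0.11 (adjusted p = 0.0081 and 0.0049). Cox6a1, the common form of subunit VIa, was 0.39 higher in the lines in both comparisons. Its call against osteoblasts was lost without osteoblast culture 1 or 3 (adjusted p up to 0.065). Its call against pre-osteoblasts was lost without pre-osteoblast culture 2 or 3 or with only 2 groups in the fit (up to 0.078). Cox7b rose by 0.36 ± 0.06 in the lines against pre-osteoblasts (adjusted p = 0.0045).

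Cox4i1, the common form of the large nuclear-encoded subunit IV, was 0.25 lower both in the lines and in osteoblasts than in pre-osteoblasts, at adjusted p values of 0.044 and 0.043. Both calls were lost without line 1, osteoblast culture 1 or 3, or pre-osteoblast culture 1 or 3, and with a trend in the spread. The first was also lost without line 3, with centred arrays, with array weights or with only 2 groups in the fit. The second was also lost without osteoblast culture 2 and after repeated quantile normalization. Their adjusted p values by limma reached 0.14 and 0.13. Cox7a2l, which joins complexes III and IV into supercomplexes, was lower in the lines than in osteoblasts (-0.69 ± 0.13, adjusted p = 0.0043). Against pre-osteoblasts its difference of -0.45 lost the call without line 1 or 2, osteoblast culture 1 or any pre-osteoblast culture (adjusted p up to 0.11). Repeated quantile normalization, centring of arrays and a fit of only 2 groups also removed this call. The other probe set of Cox7a2l gave smaller differences, -0.47 against osteoblasts and -0.24 against pre-osteoblasts. Cox5b, Cox6b1 and Cox6c were called in no comparison.

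The balance within an isoform pair was taken on each array as the log2 level of the restricted form minus that of its partner, which says only whether both probe sets changed unequally. For Cox8b over Cox8a the balance shifted by 3.15 between osteoblasts and pre-osteoblasts and by -3.22 between lines and osteoblasts. For Cox6a2 over Cox6a1 the shifts were 1.74 and -2.21, for Cox7a1 over Cox7a2 0.58 and -0.93, and for Ndufa4l2 over Ndufa4 1.07 and -1.04. In each of these 4 pairs the osteoblast arrays did not overlap either other group (exact two-sided permutation p = 0.1, the smallest that 3 against 3 arrays allow, so that no adjustment over the 6 pairs and 3 comparisons can bring it below 0.05). In the last pair only Ndufa4 was called.

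**Figure D3:**
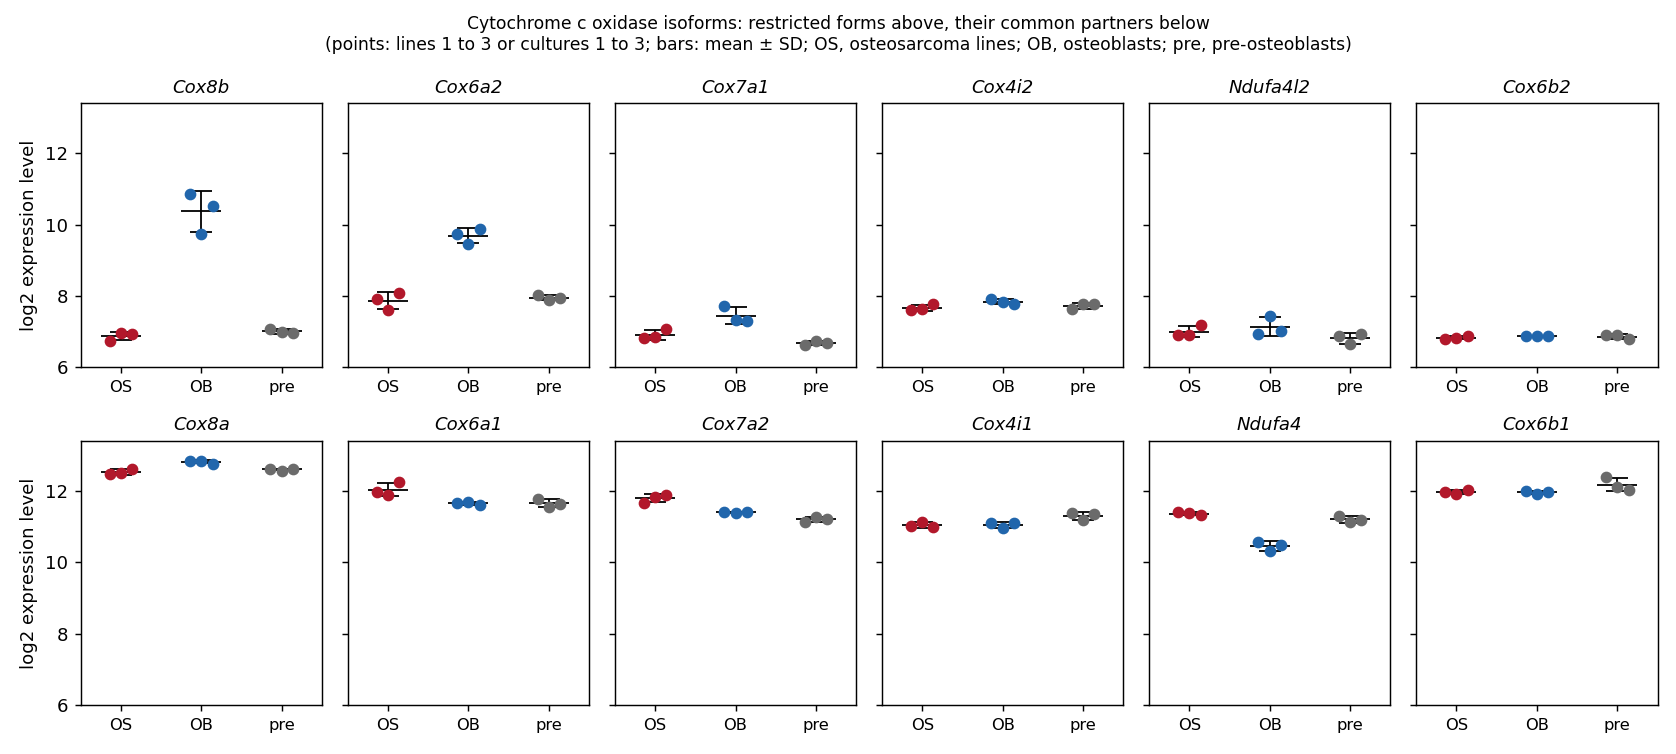
Log2 level of 6 restricted isoforms of cytochrome c oxidase (upper row) and their common partners (lower row) in osteosarcoma lines (OS), osteoblasts (OB) and pre-osteoblasts (pre); points are arrays and bars are mean ± SD over 3 arrays. Cox8b, Cox6a2 and Cox7a1 are highest in osteoblasts, and Ndufa4 is lowest there.

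The start regions of 2 isoform pairs are shown because the restricted and the common forms differ in their letters. The windows run from 250 bases before to 50 after the annotated start (RefSeq, assembly GRCm38.p6), 5′ to 3′ on the gene's strand, and capitals mark matches to the motifs searched on both strands: CGGAAG (other strand CTTCCG) of GABP, CGCATGCG of NRF1, and TATAAA (other strand TTTATA) of the TATA box. The windows lie at chr7:140900397-140900696 (minus strand) for Cox8b, chr19:7217567-7217866 (minus strand) for Cox8a, chr7:30183921-30184220 (plus strand) for Cox7a1 and chr9:79759804-79760103 (minus strand) for Cox7a2.
Cox8b: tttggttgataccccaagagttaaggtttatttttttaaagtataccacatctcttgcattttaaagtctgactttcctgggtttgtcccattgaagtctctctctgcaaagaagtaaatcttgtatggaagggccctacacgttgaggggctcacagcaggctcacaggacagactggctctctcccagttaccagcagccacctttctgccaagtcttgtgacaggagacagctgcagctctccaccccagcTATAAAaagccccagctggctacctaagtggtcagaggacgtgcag
Cox8a: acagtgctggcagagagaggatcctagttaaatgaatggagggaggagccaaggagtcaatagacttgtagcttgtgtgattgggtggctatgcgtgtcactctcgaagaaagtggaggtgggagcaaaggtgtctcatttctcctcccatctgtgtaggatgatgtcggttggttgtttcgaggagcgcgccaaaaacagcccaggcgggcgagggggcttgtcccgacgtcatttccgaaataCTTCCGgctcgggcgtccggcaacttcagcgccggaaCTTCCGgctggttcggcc
Cox7a1: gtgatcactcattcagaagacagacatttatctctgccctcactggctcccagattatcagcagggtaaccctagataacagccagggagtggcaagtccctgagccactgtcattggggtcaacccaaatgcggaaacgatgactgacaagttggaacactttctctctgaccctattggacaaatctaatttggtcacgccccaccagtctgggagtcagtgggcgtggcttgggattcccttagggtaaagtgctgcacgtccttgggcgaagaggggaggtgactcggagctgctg
Cox7a2: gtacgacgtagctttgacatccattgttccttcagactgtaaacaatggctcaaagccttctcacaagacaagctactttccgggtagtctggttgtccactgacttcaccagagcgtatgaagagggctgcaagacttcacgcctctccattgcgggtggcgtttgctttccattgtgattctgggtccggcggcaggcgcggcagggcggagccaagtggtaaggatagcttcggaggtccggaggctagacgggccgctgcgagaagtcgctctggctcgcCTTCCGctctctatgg
The Cox8b window held 2 CpG dinucleotides and a TATAAA match, which began at base 5 after the annotated start and not before it. The Cox8a window held 19 CpGs and 2 matches to the GABP motif, at positions -5 and 33 from the start. The Cox7a1 window held 7 CpGs and no match, and the Cox7a2 window 20 CpGs and 1 GABP match, at position 35.

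A window was found for 73 of the 89 genes. Of these, 31 held the GABP motif (42.5%), against 22.6% of the windows of all 15563 measured genes found and 34.4% of those above the median level. The NRF1 motif was in 10 (13.7%), against 2.76% and 4.43%, and TATAAA in 8 (11.0%), against 12.1% and 6.47%. Complex V had the GABP motif in 9 of its 15 windows and complex I in 12 of 37. Of the 4 restricted isoforms with a window (Cox6b2, Cox7a1, Cox7b2 and Cox8b), 0 held a GABP or NRF1 match and 2 held TATAAA, and their median CpG count was 8.5, against 20 over all members found. A match describes the letters of the window and is not a bound site.

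Adipocyte markers were mostly called higher in osteoblasts, like Cox8b, Cox6a2 and Cox7a1, while striated muscle and macrophage markers were not. Of 13 adipocyte markers measured, 8 were called higher and 0 lower in osteoblasts than in pre-osteoblasts, and 0 were called higher and 12 lower in the lines than in osteoblasts. The mean level of the list per array ran from 7.64 to 8.06 in the lines, from 10.4 to 11.0 in osteoblasts and from 8.40 to 8.85 in pre-osteoblasts. Of 9 brown adipocyte markers, Ppargc1a and Dio2 were called higher in osteoblasts than in pre-osteoblasts, while Ucp1, the uncoupling protein that defines brown fat, lay between 5.96 and 6.22 on all 9 arrays and Cidea between 5.48 and 5.85, and neither was called. Of 18 striated muscle markers, 0 were called higher in osteoblasts than in pre-osteoblasts and 2 lower (Acta1 and Actc1), and the list's mean level lay between 7.10 and 7.20 on every array. The 13 proliferation markers measured were all called lower in osteoblasts than in pre-osteoblasts, all called higher in the lines than in osteoblasts, and 0 were called between lines and pre-osteoblasts. Of 10 macrophage and haematopoietic markers, 1 was called higher and 1 lower in the lines than in osteoblasts and 0 higher and 1 lower in osteoblasts than in pre-osteoblasts, with mean levels between 6.56 and 6.70 on every array. Over all genes, 10.3% were called higher and 15.8% lower in osteoblasts than in pre-osteoblasts, and 14.7% and 12.7% in the lines than in osteoblasts. The part of fat cells and of growth state in the isoform differences was not tested.

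Complex I, the NADH dehydrogenase, has catalytic core subunits, accessory subunits around them and assembly factors, and calls fell in each of these classes. Against osteoblasts, 10 of 28 accessory subunits were called higher in the lines and 1 lower (Ndufab1, -0.34, adjusted p = 0.047, lost under 13 of the alternatives tried, up to 0.14). Against pre-osteoblasts, 9 were called higher and 1 lower (Ndufb6). Of the 6 core subunits measured, 0 were called higher in the lines in either comparison, 1 was called lower against osteoblasts and 2 against pre-osteoblasts. In osteoblasts against pre-osteoblasts, 1 accessory subunit was called higher and 5 lower, and 1 core subunit higher and 0 lower. Of 7 assembly factors, 1 was called higher and 3 lower. Over all genes, 14.7% were called higher and 12.7% lower in the lines than in osteoblasts, and 9.96% and 13.5% than in pre-osteoblasts. In osteoblasts against pre-osteoblasts the shares were 10.3% and 15.8%. Above the median level the 3 pairs of shares were 25.6% and 21.4%, 16.2% and 24.1%, and 17.1% and 29.1%.

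The accessory subunit Ndufc1 of the membrane arm had levels of 11.54, 11.71 and 11.57 in the lines, 10.91, 10.92 and 10.87 in osteoblasts and 10.82, 10.60 and 10.80 in pre-osteoblasts. The lines were above all other arrays, by 0.70 ± 0.08 against osteoblasts and 0.86 ± 0.08 against pre-osteoblasts (adjusted p = 0.00039 and 0.0002), and the second probe set of the gene gave 0.74 and 0.84. Ndufa2, of the NADH-oxidising tip, was 0.71 ± 0.13 and 0.73 ± 0.13 higher in the lines (adjusted p = 0.005 and 0.0054). Ndufa9, at the junction of both arms, had levels of 11.35, 11.70 and 11.40 in the lines, 10.78, 10.76 and 10.50 in osteoblasts and 11.05, 11.01 and 10.97 in pre-osteoblasts. Its difference was 0.80 ± 0.11 against osteoblasts (adjusted p = 0.0011) and 0.47 ± 0.11 against pre-osteoblasts, and the call against pre-osteoblasts was lost without pre-osteoblast culture 3 (adjusted p = 0.057). Ndufa5 and Ndufs6 were also called higher in the lines in both comparisons, by 0.48 to 0.54.

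Other accessory subunits followed the Kusa4b10 state instead. Ndufs4, an accessory subunit of the NADH-oxidising arm whose loss gives a Leigh-like disease in mice, had levels of 12.46, 12.52 and 12.35 in the lines, 11.84, 11.88 and 11.77 in osteoblasts and 12.56, 12.32 and 12.33 in pre-osteoblasts. It fell in osteoblasts against pre-osteoblasts (-0.57 ± 0.08, adjusted p = 0.0015) and higher in the lines than in osteoblasts (0.61 ± 0.08, adjusted p = 0.00097). Ndufb6, of the membrane arm, had levels of 11.96, 12.07 and 11.68 in the lines, 11.93, 11.82 and 11.87 in osteoblasts and 12.52, 12.63 and 12.65 in pre-osteoblasts. Only the pre-osteoblast arrays stood apart for Ndufb6: the lines were lower by 0.70 ± 0.10 and osteoblasts by 0.73 ± 0.10 (adjusted p = 0.0018 and 0.0012). Ndufs5 showed the widest spread among the lines, with 9.73 and 9.65 in lines 1 and 2 and 8.37 in line 3, and was called in no comparison.

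Among the core subunits, Ndufv1, which carries the flavin that takes electrons from NADH, had levels of 11.09, 11.40 and 11.12 in the lines, 11.69, 11.56 and 11.56 in osteoblasts and 11.77, 11.94 and 11.79 in pre-osteoblasts. The lines lay below all other arrays, by 0.63 ± 0.10 against pre-osteoblasts (adjusted p = 0.0024) and by 0.40 ± 0.10 against osteoblasts (adjusted p = 0.015, lost without line 1 or osteoblast culture 1, up to 0.061). Ndufs8, an iron-sulfur subunit on the way to ubiquinone, was 0.37 ± 0.08 lower in the lines than in pre-osteoblasts (adjusted p = 0.014). Ndufs7, its neighbour, was 0.27 higher in osteoblasts against pre-osteoblasts (adjusted p = 0.028), a call lost without osteoblast culture 1 or 3 or pre-osteoblast culture 1 or 3 (up to 0.10). Ndufs1, Ndufs3 and Ndufv2 were called in no comparison, and for Ndufv2 the confidence interval was -0.06 to 0.16 between lines and osteoblasts and -0.18 to 0.04 between osteoblasts and pre-osteoblasts.

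The assembly factors of complex I, which are not part of the finished enzyme, included the widest differences outside complex IV. Ndufaf1 had levels of 9.92, 9.69 and 9.88 in the lines, 9.82, 9.84 and 9.78 in osteoblasts and 10.97, 11.05 and 10.82 in pre-osteoblasts. The pre-osteoblast arrays thus stood apart from the other 6, which overlapped. Ndufaf1 was 2.17-fold lower in the lines (-1.12 ± 0.08, adjusted p = 0.0001) and 2.19-fold lower in osteoblasts (-1.13 ± 0.08, adjusted p = 6e-05) than in pre-osteoblasts.

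Ndufaf2, another assembly factor, set the lines apart, with 8.73, 9.08 and 8.57 in the lines, 7.85, 8.03 and 7.96 in osteoblasts and 7.88, 7.99 and 7.84 in pre-osteoblasts. It was higher in the lines by 0.85 ± 0.12 against osteoblasts and 0.89 ± 0.12 against pre-osteoblasts (adjusted p = 0.0015 in both). Ndufaf4 was 0.84 ± 0.24 higher in osteoblasts, set against pre-osteoblasts (adjusted p = 0.034), a call lost without any 1 of the 6 Kusa4b10 arrays (up to 0.11), and its levels in the lines spread over 9.05, 9.41 and 8.32. Ndufaf3, which works with Ndufaf4, was 0.41 lower in the lines and 0.37 lower in osteoblasts, each set against pre-osteoblasts (adjusted p = 0.019 and 0.027). The first call was lost without line 1 or pre-osteoblast culture 2 or with only 2 groups in the fit (up to 0.062). The second was lost without any osteoblast culture or pre-osteoblast culture 1 or 2 (up to 0.082). Ndufaf5 and Ndufaf6 were called in no comparison.

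Complex II, succinate dehydrogenase, which also belongs to the citric acid cycle, was lower in osteoblasts than in pre-osteoblasts for 2 of its 4 genes. In that comparison 15.8% of all genes and 29.1% of those above the median level were called lower. Sdha, the catalytic flavoprotein, had levels of 11.86, 12.04 and 11.89 in the lines, 11.65, 11.51 and 11.51 in osteoblasts and 11.93, 12.03 and 11.90 in pre-osteoblasts, so that the osteoblast arrays lay below all others. It was -0.40 ± 0.07 in osteoblasts against pre-osteoblasts and 0.38 ± 0.07 in the lines against osteoblasts (adjusted p = 0.0045 and 0.0056). Sdhc, a membrane anchor that binds haem, had levels of 11.57, 11.84 and 11.55 in the lines, 11.41, 11.29 and 11.32 in osteoblasts and 11.90, 11.86 and 11.81 in pre-osteoblasts. It fell in osteoblasts against pre-osteoblasts (-0.51 ± 0.08, adjusted p = 0.0027) and was higher in the lines than in osteoblasts (0.31 ± 0.08, adjusted p = 0.025). The second call was lost without osteoblast culture 2 or 3 or with only 2 groups in the fit (adjusted p up to 0.079). Sdhb, the iron-sulfur subunit, and the second anchor Sdhd were not called. No complex II gene was called between lines and pre-osteoblasts, where Sdhb differed by 0.27 (95% confidence interval 0.02 to 0.52) and was called without line 3 (adjusted p = 0.02), and Sdhc differed by -0.20 (-0.39 to -0.01) and was called without line 2 (adjusted p = 0.012).

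In complex III, the cytochrome bc1 complex, several small subunits and the core protein Uqcrc1 were higher in the lines than in pre-osteoblasts. The core protein Uqcrc2 was lower. In this comparison 5 of 8 genes were called higher and 1 lower, against 9.96% and 13.5% of all genes. Above the median level the shares were 16.2% and 24.1%. Uqcrc2, the second of the core proteins that face the matrix, was 1 of 2 genes called in all 3 comparisons, with Atp5mpl of complex V. It had levels of 11.88, 11.94 and 11.84 in the lines, 12.33, 12.26 and 12.26 in osteoblasts and 12.78, 12.73 and 12.65 in pre-osteoblasts, with no overlap between any of the groups. Its differences were -0.40 ± 0.06 between lines and osteoblasts, -0.83 ± 0.06 between lines and pre-osteoblasts and -0.43 ± 0.06 between osteoblasts and pre-osteoblasts (adjusted p = 0.0013, 8e-05 and 0.001).

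Uqcrc1, the first core protein, went the other way, with 11.75, 12.09 and 11.90 in the lines, 11.58, 11.57 and 11.46 in osteoblasts and 11.19, 11.45 and 11.36 in pre-osteoblasts. The lines were 0.58 ± 0.10 above pre-osteoblasts (adjusted p = 0.0044) and 0.38 ± 0.10 above osteoblasts (adjusted p = 0.024, lost without line 2 or any osteoblast culture, up to 0.086). Uqcr10, a small subunit, had levels of 10.27, 10.17 and 10.11 in the lines, 9.98, 9.97 and 9.97 in osteoblasts and 9.49, 9.66 and 9.48 in pre-osteoblasts. It was higher than in pre-osteoblasts by 0.64 ± 0.07 in the lines and 0.43 ± 0.07 in osteoblasts (adjusted p = 0.00044 and 0.0022). Uqcrq, the small subunit beside cytochrome b, was 0.44 ± 0.07 and 0.57 ± 0.07 higher in these comparisons (adjusted p = 0.0034 and 0.00092). The hinge protein gene Uqcrh was 0.61 ± 0.10 higher in the lines than in pre-osteoblasts (adjusted p = 0.0031). Uqcrfs1, the catalytic Rieske iron-sulfur protein, was called in no comparison; its difference between lines and pre-osteoblasts was 0.25 (95% confidence interval 0.02 to 0.47).

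In ATP synthase, 3 of 4 peripheral stalk genes and 4 of 8 membrane genes were called higher in the osteosarcoma lines against each of the other groups. Of 5 genes of the F1 part, which joins the catalytic head and the central shaft, 0 were called higher. Over all genes, 14.7% were called higher and 12.7% lower against osteoblasts, and 9.96% and 13.5% against pre-osteoblasts. Above the median level the shares were 25.6% and 21.4%, and 16.2% and 24.1%. Called lower in the lines were 0 genes against osteoblasts, and 2 membrane genes (Atp5g2 and Atp5md) and 1 F1 gene (Atp5e) against pre-osteoblasts; the difference between these classes was not tested. Atp5o, the cap of the peripheral stalk, had levels of 11.93, 11.99 and 11.88 in the lines, 11.26, 11.28 and 11.23 in osteoblasts and 11.18, 11.30 and 11.22 in pre-osteoblasts. The lines stood clear of all 6 others, by 0.68 ± 0.06 against osteoblasts and 0.70 ± 0.06 against pre-osteoblasts (adjusted p = 0.00012 and 0.00014).

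Atp5pb, subunit b of the stalk, had levels of 12.06, 12.28 and 12.03 in the lines, 11.52, 11.35 and 11.48 in osteoblasts and 11.45, 11.37 and 11.36 in pre-osteoblasts. It was higher in the lines by 0.67 ± 0.08 and 0.73 ± 0.08 (adjusted p = 0.00063 and 0.00057). Atp5j, the coupling factor F6 of the stalk, was 0.38 ± 0.07 and 0.33 ± 0.07 higher, while Atp5h, the stalk subunit d, was not called in any comparison.

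Of the membrane genes, Atp5k, subunit e at the interface of ATP synthase dimers, had levels of 9.56, 9.72 and 9.63 in the lines, 8.88, 8.86 and 8.96 in osteoblasts and 8.99, 8.87 and 8.86 in pre-osteoblasts. The lines were 0.74 ± 0.06 and 0.73 ± 0.06 higher (adjusted p = 0.00016 and 0.00021). Atp5l, subunit g of the same interface, was 0.60 ± 0.10 and 0.59 ± 0.10 higher, and its 6 probe sets gave 0.53 to 0.62 against pre-osteoblasts. Atp5mpl, a small proteolipid of the membrane part, had levels of 10.99, 11.18 and 10.83 in the lines, 10.25, 10.18 and 10.24 in osteoblasts and 10.51, 10.51 and 10.51 in pre-osteoblasts. The 3 pre-osteoblast values were identical as deposited (10.5122, SD 0.0), which lowers the pooled spread of the gene. Equal values are not particular to Atp5mpl: between any 2 arrays, 2.73% to 4.33% of the probe sets held the same value. Atp5mpl was 0.78 ± 0.08 and 0.49 ± 0.08 higher in the lines (adjusted p = 0.00042 and 0.0044). Its fall of 0.29 in osteoblasts against pre-osteoblasts (adjusted p = 0.036) lost the call without line 1 or any 1 of the 6 Kusa4b10 arrays (up to 0.10). A trend in the spread also removed this call. Atp5md, another small membrane subunit, was lower than in pre-osteoblasts by 0.32 in the lines and 0.29 in osteoblasts (adjusted p = 0.017 and 0.021). The first call was lost without line 1 or pre-osteoblast culture 3, and the second without osteoblast culture 1 or 2 or pre-osteoblast culture 3 (up to 0.052 and 0.065).

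The 3 genes for the identical mature c subunit of the rotating ring did not move together. Atp5g2 had levels of 12.49, 12.25 and 12.58 in the lines, 12.45, 12.39 and 12.36 in osteoblasts and 13.24, 13.12 and 13.14 in pre-osteoblasts. Only the pre-osteoblasts stood apart: the lines were lower by 0.72 ± 0.09 and osteoblasts by 0.77 ± 0.09 (adjusted p = 0.00082 and 0.00055), and the 3 probe sets of the gene gave -0.77 to -0.73 for osteoblasts. Atp5g1 and Atp5g3 were called in no comparison, with differences from pre-osteoblasts of 0.16 and 0.24 in the lines and 0.09 and 0.16 in osteoblasts.

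In the F1 part, Atp5b, the catalytic beta subunit, had levels between 13.62 and 13.83 on all 9 arrays and was called in no comparison. Atp5c1 and Atp5d of the central shaft were not called either. Atp5a1, the alpha subunit, was 0.42 ± 0.08 lower in osteoblasts, set against pre-osteoblasts (adjusted p = 0.0059). Atp5e, the smallest F1 subunit, was 0.52 ± 0.11 lower in osteoblasts, set against pre-osteoblasts (adjusted p = 0.01, limma), and 0.42 lower in the lines. The call in the lines was lost without any 1 of the lines, with array weights or with only 2 groups in the fit (adjusted p up to 0.078). No complex V gene was called higher in osteoblasts than in pre-osteoblasts, against 10.3% of all genes. Of the 17, 5 were called lower (29.4%), against 15.8% of all genes and 29.1% of those above the median level.

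**Figure D4:**
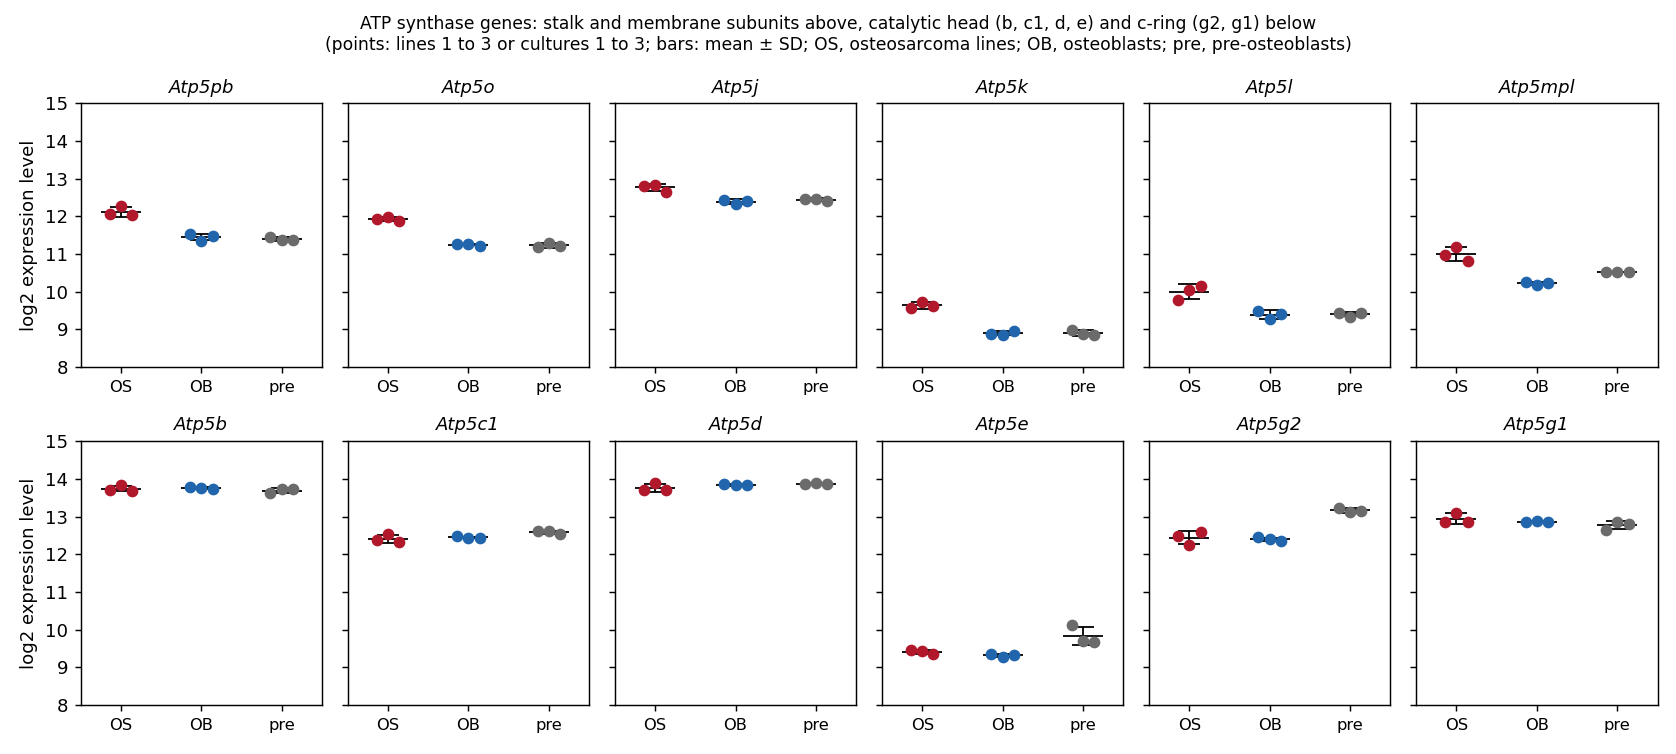
Log2 level of 12 ATP synthase genes in osteosarcoma lines (OS), osteoblasts (OB) and pre-osteoblasts (pre). The upper row shows peripheral stalk and membrane subunits and the lower row F1 and c-ring genes. Points are arrays and bars are mean ± SD over 3 arrays. The 6 genes of the upper row are highest in the lines, Atp5b and Atp5d lie level, and Atp5e and Atp5g2 are highest in pre-osteoblasts.

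The 3 osteosarcoma lines were not alike. Line 2 had the highest level of the 3 lines for 55 of the 89 genes (61.8%, against 40.1% of all genes). Line 3 had it for 23 (25.8%, against 35.9%) and line 1 for 11 (12.4%, against 24.0%). Among genes above the median level, line 2 was the highest for 66.3% of the 83 members and 48.6% of genes. Line 2 was the highest for 30 of 41 complex I genes and 13 of 17 complex V genes, whereas line 3 was the highest for 13 of 19 complex IV genes. The median of the centred levels over the 89 genes was 0.04, 0.15 and 0.01 in lines 1 to 3, between -0.08 and -0.03 in osteoblasts and between -0.03 and -0.01 in pre-osteoblasts. With 1 array per line, a difference between lines cannot be told apart from a difference between arrays.

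Genes that act with the chain but fall outside the name rule were mixed. The array measured 2 mitochondrially encoded subunits with a probe set of their own: ND3 of complex I had levels of 13.28, 13.33 and 13.19 in the lines, 13.62, 13.56 and 13.61 in osteoblasts and 13.10, 13.09 and 13.25 in pre-osteoblasts. In osteoblasts it was above pre-osteoblasts (0.45 ± 0.06, adjusted p = 0.0015) and lower in the lines than in osteoblasts (-0.33 ± 0.06, adjusted p = 0.0056). The mitochondrially encoded COX2 showed 0.24 and -0.22, calls that were lost under 7 and 8 of the alternatives tried (adjusted p up to 0.082 and 0.094). Cyc1, cytochrome c1 of complex III, was higher than in pre-osteoblasts by 0.64 ± 0.07 in the lines and 0.63 ± 0.07 in osteoblasts (adjusted p = 0.00039 and 0.00038).

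Of 39 assembly factors outside the name rule, 7 were called higher and 6 lower in the lines than in osteoblasts, 5 and 7 in the lines than in pre-osteoblasts, and 1 and 9 in osteoblasts than in pre-osteoblasts. Cmc2, a factor of cytochrome c oxidase assembly, was 1.41 ± 0.17 higher in the lines than in osteoblasts (adjusted p = 0.00062), and Sdhaf4, which helps to load Sdha, 1.07 ± 0.13 higher (adjusted p = 0.00075). Of 77 mitochondrial ribosomal protein genes, 27 were called higher and 4 lower in the lines than in osteoblasts, 20 and 10 against pre-osteoblasts, and 4 and 17 in osteoblasts than in pre-osteoblasts. Of 24 import translocase genes, 8 were called higher in the lines in each of their comparisons, with 1 lower against osteoblasts (Timm10, a call lost without osteoblast culture 1 or 3, adjusted p up to 0.053) and 0 lower against pre-osteoblasts. In osteoblasts against pre-osteoblasts, 5 import genes were called higher and 5 lower. Of 23 genes of the citric acid cycle and pyruvate dehydrogenase, 3 were called higher and 1 lower in the lines than in osteoblasts, 4 and 4 against pre-osteoblasts, and 2 and 6 in osteoblasts than in pre-osteoblasts. Pdk1, the kinase that switches off pyruvate dehydrogenase, was 1.31 ± 0.21 higher in the lines than in osteoblasts and 1.12 ± 0.21 higher than in pre-osteoblasts (adjusted p = 0.0026 and 0.0067). Of 20 genes of electron carriers and ubiquinone synthesis, 3 were called higher and 3 lower in each comparison of the lines. In osteoblasts against pre-osteoblasts, 4 were called higher and 3 lower. Over all genes, 14.7% were called higher and 12.7% lower in the lines than in osteoblasts, and 9.96% and 13.5% than in pre-osteoblasts. In osteoblasts against pre-osteoblasts the shares were 10.3% and 15.8%. Whether a list departs from these shares was not tested.

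Among 23 regulators of mitochondrial gene expression, the PGC-1 coactivators were highest in osteoblasts and 3 regulators were called higher and 4 lower in the lines than in osteoblasts. Against pre-osteoblasts, 3 were called higher and 3 lower in the lines, and 4 higher and 1 lower in osteoblasts. Shares over all genes were 14.7% higher and 12.7% lower in the lines than in osteoblasts, and 9.96% and 13.5% than in pre-osteoblasts. They were 10.3% and 15.8% in osteoblasts against pre-osteoblasts. Ppargc1a, which encodes PGC-1alpha, had levels of 6.93, 6.50 and 7.85 in the lines, 9.03, 8.03 and 8.53 in osteoblasts and 6.65, 6.48 and 6.41 in pre-osteoblasts. In osteoblasts it was 2.01 ± 0.35 above pre-osteoblasts (adjusted p = 0.0037) and differed by -1.44 ± 0.35 between lines and osteoblasts (adjusted p = 0.016, lost without line 1 or osteoblast culture 1 or 3, up to 0.062). Ppargc1b, its relative, had levels of 7.42, 7.82 and 7.68 in the lines, 8.42, 8.32 and 8.35 in osteoblasts and 7.80, 7.63 and 7.60 in pre-osteoblasts, a difference of 0.69 ± 0.11 between osteoblasts and pre-osteoblasts and of -0.73 ± 0.11 between lines and osteoblasts (adjusted p = 0.0021 and 0.0015). Esrra, the oestrogen-related receptor that works with PGC-1alpha, was lower in the lines than in osteoblasts (-0.36 ± 0.07, adjusted p = 0.0058) and than in pre-osteoblasts (-0.43 ± 0.07, adjusted p = 0.0033). Nrf1 and the mitochondrial DNA packaging factor Tfam were called in no comparison, and Gabpa, the DNA-binding subunit of GABP, was 0.33 higher in the lines than in pre-osteoblasts (adjusted p = 0.018, lost without pre-osteoblast culture 2 or 3, up to 0.063).

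**Figure D5:**
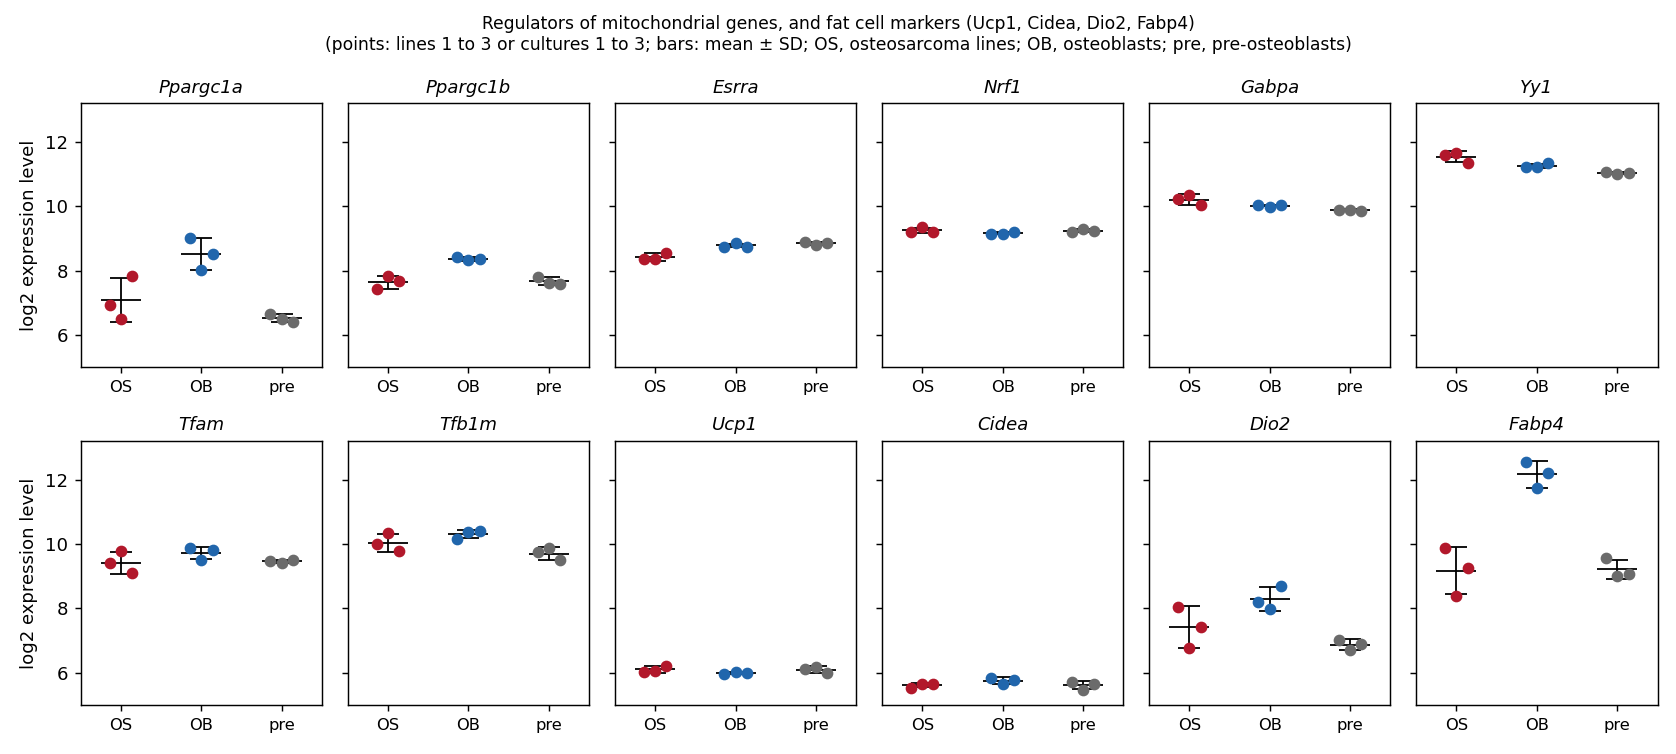
Log2 level of 8 regulators of mitochondrial genes and of the fat cell markers Ucp1, Cidea, Dio2 and Fabp4 in osteosarcoma lines (OS), osteoblasts (OB) and pre-osteoblasts (pre); points are arrays and bars are mean ± SD over 3 arrays. Ppargc1a, Ppargc1b and Fabp4 are highest in osteoblasts, Nrf1 is level, and Ucp1 and Cidea stay between 5.48 and 6.22 in all groups.

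Of 7 factors tied to hypoxia or uncoupling, 2 were called higher and 1 lower in the lines than in osteoblasts. The counts were 3 and 0 in the lines against pre-osteoblasts, and 3 and 1 in osteoblasts against pre-osteoblasts. All genes gave shares of 14.7% and 12.7%, 9.96% and 13.5%, and 10.3% and 15.8% in these comparisons. Lonp1, the mitochondrial protease that trims cytochrome c oxidase subunits, had levels of 10.40, 10.38 and 10.24 in the lines, 10.82, 10.73 and 11.04 in osteoblasts and 9.92, 9.78 and 9.55 in pre-osteoblasts, and its osteoblast level was 1.11 ± 0.11 above that of pre-osteoblasts (adjusted p = 0.00033). Higd2a, a small protein of cytochrome c oxidase and its supercomplexes, had levels of 11.37, 11.37 and 11.47 in the lines, 10.73, 10.64 and 10.74 in osteoblasts and 11.46, 11.48 and 11.26 in pre-osteoblasts. Higd2a was -0.69 ± 0.07 in osteoblasts against pre-osteoblasts and 0.70 ± 0.07 in the lines against osteoblasts (adjusted p = 0.00038 and 0.00035), low on the same 3 arrays as Ndufa4.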

How the data were processed

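RNA of 9 samples was measured on 1-colour expression arrays with 35556 probe sets. The deposited log2 values were made by the authors with RMA, which corrects background, quantile-normalizes the arrays and summarizes probes, per the submitters' processing notes, which also name the build mm9; for version and filters, nothing is given in the sources used here. It compresses small differences of dim probe sets and assumes a like distribution of levels on every array; array medians ran from 7.43 to 7.56.

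Probe sets were named through the platform annotation: 21789 had 1 symbol, 1621 had several and 12146 had none. Each of 19938 genes was read from its brightest probe set on average. limma 3.58.1 in R 4.3.3 fitted 3 group means to all 9 arrays with a shared spread (lmFit, eBayes), with Benjamini-Hochberg adjustment over all genes, two-sided, at an adjusted p of 0.05. The fit was tested on simulated data, with each gene's spread pooled over the groups and known changes put into the osteoblast group. Changes of 0.5 were recovered in 40.0% of cases between osteoblasts and pre-osteoblasts and in 44.0% between lines and osteoblasts. Changes of 1 were recovered in 86.0% in both. The simulated data gave 171 calls in each of these comparisons, whereas the real data gave 5202 and 5459. With fewer changed genes the Benjamini-Hochberg adjustment is stricter, so these recoveries do not carry over to the data. A gene without a call can still differ. For Ndufs5 the 95% confidence interval between lines and osteoblasts ran from -0.80 to 0.65. The number of arrays limits the precision. The p-values rest on a spread pooled over 3 tumour lines and the cultures of 1 line, not on that of the 2 groups compared. With only 2 groups in the fit, 17.9% of all genes instead of 23.5% were called between lines and pre-osteoblasts. The shares were 22.6% instead of 27.4% between lines and osteoblasts, and 31.7% instead of 26.1% between osteoblasts and pre-osteoblasts. Tables and figures were made in Python 3.11.15 with numpy 2.4.6, pandas 2.3.3, scipy 1.17.1 and matplotlib 3.10.9.

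The members and lists were chosen with earlier results of these data known. Named were the core and catalytic subunits, complex II, the isoform pairs, the 6 largest called rises and falls of each comparison, genes called in all 3 comparisons, the regulators and the mitochondrially encoded subunits, and from each other list up to 4 called genes; further members were named to complete a complex after their values were seen. Start regions came from RefSeq, assembly GRCm38.p6. Alternatives were filters on dim genes, the mean of probe sets, a repeated quantile normalization, centring of arrays, a fit of only 2 groups, array weights, a trend in the spread, strict subunits, a replicate block and leaving out each array.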

Additional observations from a re-analysis of the deposited data

How the results depend on the processing

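Of 99 calls over the 89 genes and 3 comparisons, 68 were kept under every alternative, 31 were lost under at least 1 and 0 reversed. The median difference of the members was 0.17 between osteosarcoma lines and osteoblasts with arrays centred on their medians, against 0.05 over all genes. Among genes above the median level it was 0.16, against 0.02 over the genes tested. Between lines and pre-osteoblasts it was 0.10 with centred arrays, against 0.04 over all genes. Between osteoblasts and pre-osteoblasts it was 0.0382 after repeated quantile normalization, against 0.004 over all genes. Centring shifts every gene of a comparison by the same amount. With centred arrays, 3682 of all genes were called higher and 2028 lower in the lines than in osteoblasts, against 2936 and 2523 as reported, and 34 and 7 members. With only 2 groups in the fit, 7 members were called lower in the lines than in pre-osteoblasts. The balance of Cox6b2 over Cox6b1 between lines and osteoblasts was 0.043 after repeated quantile normalization, against -0.06. Apart from the shift that centring gives to every gene, the cause of these changes was not tested.

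Leaving out 1 array gave 19 to 32 members higher and 6 to 9 lower in the lines than in osteoblasts (median 0.0889 to 0.1643), 21 to 32 higher and 6 to 15 lower in the lines than in pre-osteoblasts (median 0.009 to 0.0861), and 5 to 12 higher and 12 to 21 lower in osteoblasts than in pre-osteoblasts (median -0.0269 to 0.0113). Same-numbered osteoblast and pre-osteoblast cultures deviated together with correlations of 0.15, 0.18 and 0.03, so the numbers were not taken to pair the samples, and osteoblast culture 3 correlated best with pre-osteoblast culture 1. With the replicate number as a block, 10 members were called higher and 17 lower in osteoblasts.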
